A study of Mus musculus with 18 samples.

Results

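Glycolysis and glucose uptake were followed through 35 genes: hexose transporters, the enzymes that turn glucose into pyruvate, the enzymes that set the level of fructose-2,6-bisphosphate, lactate dehydrogenases and lactate carriers, pyruvate dehydrogenase kinases and phosphoglucomutases. The genes were chosen by symbol from the count table, and all 35 of 35 reached at least 1 CPM (counts scaled to a common library total) in 3 or more of the 18 libraries. Pfkfb1 reached that level in 12 libraries and the other 34 genes in all 18. The whole table held 43280 symbols, of which 14158 passed that filter and were tested.

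The cells were macrophages grown in culture from the bone marrow of wild-type C57BL/6J mice. The mice had received phosphate-buffered saline (the PBS arm) or the bacterial cell wall product lipopolysaccharide (the 1xLPS and 4xLPS arms) in vivo, and the cultured cells were then left unstimulated or were given LPS. The 6 groups, PBS, 1xLPS and 4xLPS each with and without LPS in culture, held 3 libraries each, with total counts from 9296453 to 54050622. The labels give no dose, interval in vivo, hours of stimulation or age. They do not state that the libraries in a group are from different animals, so every p-value measures only the spread between libraries, which may be technical. Groups follow the sample titles and the column names of the table, which give one arm to each library. For 12 of the 18 libraries the treatment tag says the opposite of the title (PBS for 4xLPS and 4xLPS for PBS), and under the tag the PBS and 4xLPS arms would trade places.

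Glucose enters cells through facilitative transporters of the SLC2A family, is trapped as glucose-6-phosphate by hexokinase, is committed to glycolysis by phosphofructokinase, and leaves the pathway as pyruvate, which is either reduced to lactate or oxidised in mitochondria. Macrophages exposed to LPS are known for a shift toward glycolysis and lactate release, and pyruvate dehydrogenase kinases limit the mitochondrial route. Many of these genes are known targets of the hypoxia-inducible factor HIF-1, whose response element has the core ACGTG, and of MYC, which binds the E-box CACGTG.

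The promoter stretches of 5 genes are shown because these genes carried the transport, regulatory and lactate results that follow. Each is the 250 bases before a RefSeq start site on build GRCm38.p6, read in the direction of the gene. Where RefSeq listed more than 1 promoter, as for Pfkfb3 and Ldha (2 each), the first listed was used. The Ldha start site used lies 4329 bases from the annotated start of the gene. Capitals mark ACGTG on either strand, including where it lies within CACGTG. The Slc2a6 stretch is chr2:27027999-27028248 (minus strand), that of Slc2a1 is chr4:119108495-119108744 (plus strand), that of Pfkfb3 is chr2:11553930-11554179 (minus strand), that of Slc16a1 is chr3:104638414-104638663 (plus strand), and that of Ldha is chr7:46845554-46845803 (plus strand).
Slc2a6: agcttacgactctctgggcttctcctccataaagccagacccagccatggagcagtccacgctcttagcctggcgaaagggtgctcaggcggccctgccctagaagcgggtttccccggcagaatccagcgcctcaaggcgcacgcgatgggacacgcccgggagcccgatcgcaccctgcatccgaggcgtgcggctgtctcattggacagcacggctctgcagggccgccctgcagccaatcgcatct
Slc2a1: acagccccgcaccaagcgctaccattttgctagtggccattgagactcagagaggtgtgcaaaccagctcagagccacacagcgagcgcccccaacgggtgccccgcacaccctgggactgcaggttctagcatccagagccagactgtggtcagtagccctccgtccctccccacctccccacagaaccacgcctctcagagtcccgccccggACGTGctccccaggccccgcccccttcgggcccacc
Pfkfb3: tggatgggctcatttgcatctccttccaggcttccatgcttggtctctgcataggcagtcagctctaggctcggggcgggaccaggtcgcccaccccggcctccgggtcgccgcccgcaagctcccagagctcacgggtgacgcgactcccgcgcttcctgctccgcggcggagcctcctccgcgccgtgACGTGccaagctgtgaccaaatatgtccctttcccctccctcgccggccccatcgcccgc
Slc16a1: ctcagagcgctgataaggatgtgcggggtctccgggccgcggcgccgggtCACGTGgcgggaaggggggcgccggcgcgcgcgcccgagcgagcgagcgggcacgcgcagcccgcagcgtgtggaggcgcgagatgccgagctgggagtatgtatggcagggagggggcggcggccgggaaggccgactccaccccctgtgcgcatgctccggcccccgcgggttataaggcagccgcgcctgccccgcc
Ldha: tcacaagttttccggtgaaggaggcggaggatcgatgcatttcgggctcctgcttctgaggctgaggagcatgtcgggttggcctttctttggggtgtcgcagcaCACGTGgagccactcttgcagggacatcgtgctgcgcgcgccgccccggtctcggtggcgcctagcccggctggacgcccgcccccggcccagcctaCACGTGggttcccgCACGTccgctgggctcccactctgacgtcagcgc
The Slc2a6 stretch held no ACGTG. The Slc2a1 and Pfkfb3 stretches held 1 each, starting 36 and 60 bases before the start site. Ldha held 3 sites, of which 2 were CACGTG. Over the window from 250 bases before to 50 bases after the start, RefSeq listed a promoter for 34 of the 35 genes, not for Slc2a3, and ACGTG was present in 17 of the 34 (50%). This count also uses the first promoter listed for a gene and may differ with another. It was present in 19.7% of 27025 mouse promoters of that length, and in 28.0% of the 11876 promoters with at least 10 CG dinucleotides, where 14 of 27 members held it (51.9%). CACGTG, which contains ACGTG on both strands, was found in 5 of the 34 (14.7%), in 7.24% of all promoters and in 11.1% of those with at least 10 CG dinucleotides. The consensus site of NF-kappaB was found in 1 member, Pgm1, and in 4.35% of all promoters.

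Expressed per kilobase of annotated exon and averaged over the 18 libraries, the levels of the 35 genes ran from 588 CPM per kb for Pkm, the pyruvate kinase that makes pyruvate, to 0.290 CPM per kb for Pfkfb1. Aldoa, which splits fructose-1,6-bisphosphate, followed Pkm at 508 CPM per kb, then Gapdh at 308 and Ldha at 196. Several of the most abundant genes have processed copies elsewhere in the genome, and the sources used here do not name the counting program or say how it treated such reads. The share of a gene's 50-base stretches that also occur in another annotated gene was 68.0% for Pgk1, 58.4% for Gapdh, 49.5% for Eno1, 41.5% for Pgam1, 23.7% for Pkm, 22.9% for Pfkfb2, 21% for Ldhb and 18.7% for Gpi1, and at most 10.4% for any other member, so the values of these genes are uncertain to that extent. Exons of Slc2a1, Hk1, Hk3, Gpi1, Pfkm, Pfkp, Aldoa, Tpi1, Pfkfb1, Pfkfb2, Gapdh, Pkm and Pgm1 overlap those of another annotated gene, and strand use in the counting is not stated.

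**Figure D1:**
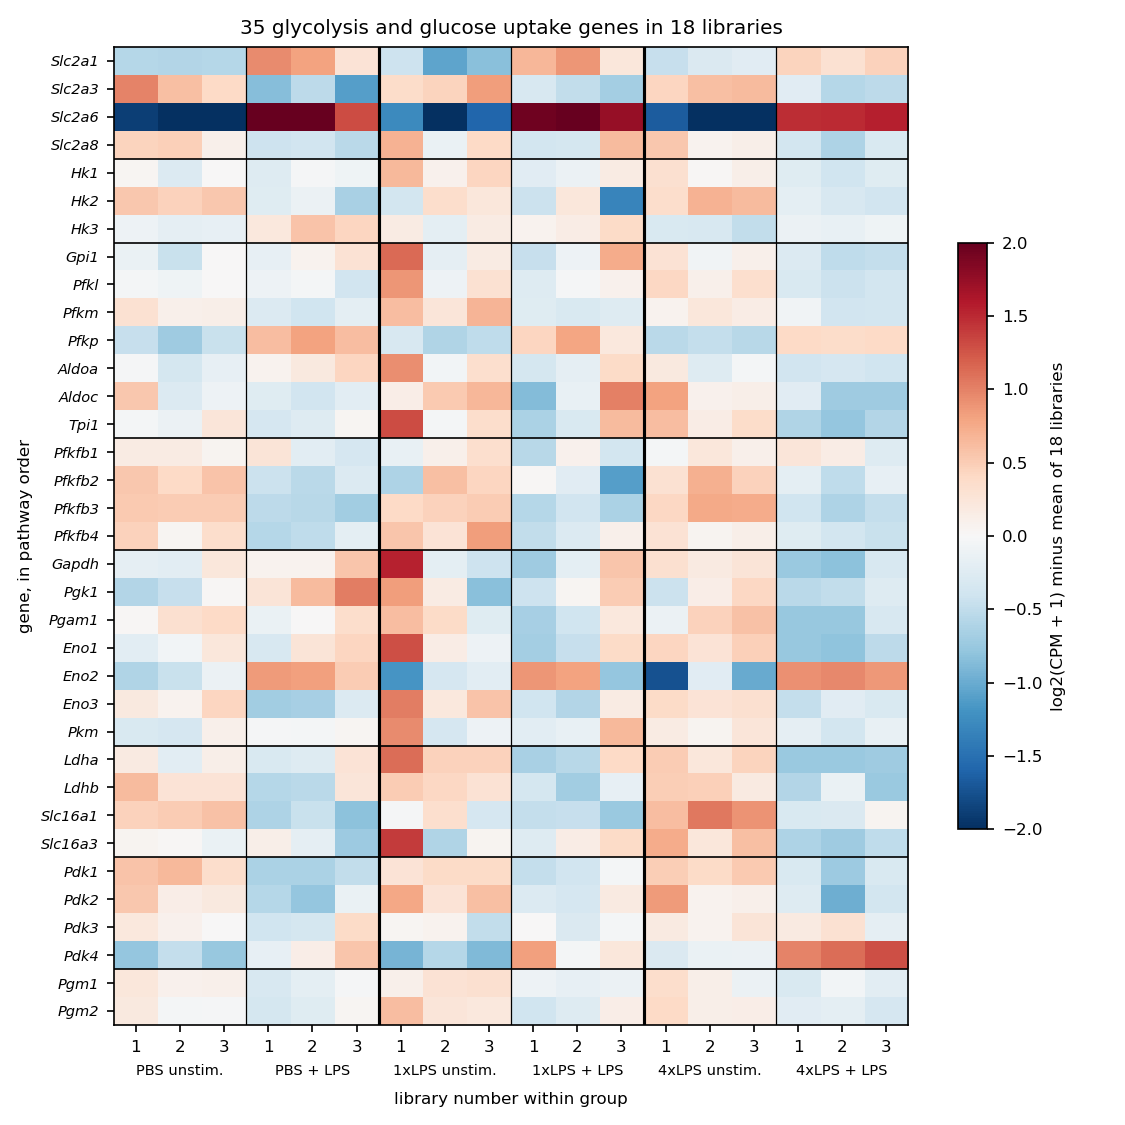
Heat map of the 35 genes (rows, in pathway order, with lines between roles) in the 18 libraries (columns, grouped by arm and stimulation), as log2(CPM + 1) minus the gene's mean over the 18 libraries, with colours capped at 2 in either direction. Slc2a6, Slc2a1, Pfkp and Pdk4 were higher and Slc2a3, Pfkfb3, Slc16a1 and Pdk1 lower in the stimulated groups, and library 1 of the unstimulated 1xLPS group was the highest of 18 for 14 genes.

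After LPS in culture, pathway genes were called in both directions. In the fit of all 18 libraries, the share that fell was above that of all tested genes in each arm. The share that rose was above it in the PBS and 4xLPS arms and under it in the 1xLPS arm. In the PBS arm 7 of the 35 genes rose and 11 fell, where 25.3% of all tested genes were called (14.0% higher and 11.3% lower). In the 1xLPS arm 4 rose and 11 fell (background 22.8%, with 12.0% higher and 10.8% lower), and in the 4xLPS arm 5 rose and 15 fell (background 18.9%, with 10.6% higher and 8.29% lower). Falls outnumbered rises in each arm, but in the 1xLPS arm this turned when only its own 6 libraries were fitted, with the same 4 rises and 2 falls (Slc2a3 and Pfkfb3). The share of all tested genes called in that smaller fit is not given here. A gene was called at a Benjamini-Hochberg adjusted p under 0.05 over all tested genes in edgeR's quasi-likelihood test, which gave every adjusted p that follows unless another tool is named. The members' median log2 fold change was -0.22 in the PBS arm, -0.48 in the 1xLPS arm and -0.66 in the 4xLPS arm, beside -0.02, -0.00076 and 0.05 over all tested genes. Stimulated and unstimulated libraries did not overlap for 8 members that were higher and 13 that were lower in the PBS arm (22.9% and 37.1%, beside 24.1% and 23.4% of tested genes). In the 1xLPS arm these were 4 and 12 (11.4% and 34.3%, beside 15.1% and 12.6%). In the 4xLPS arm they were 6 and 25 (17.1% and 71.4%, beside 27.4% and 22.4%). In each arm the share higher without overlap was thus under that of tested genes, and the share lower was above it. Scaling to library totals alone shifted the median of all genes by -0.21 in the PBS arm and -0.13 in the 1xLPS arm. The 3 responses share no library. Slc2a6, Slc2a1, Pfkp and Pdk4 rose in all 3 arms (4 of 35, or 11.4%, beside 7.40% of tested genes), and Slc2a3, Pfkfb3, Eno3, Slc16a1 and Pdk1 fell in all 3 (5 of 35, or 14.3%, beside 5.67%). Another 8 genes were called in 2 arms, 10 in 1 arm and 8 in none, and no gene was called in opposite directions. Of the calls, 10 of 18 in the PBS arm, 9 of 15 in the 1xLPS arm and 9 of 20 in the 4xLPS arm were kept whichever single library was left out.

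**Figure D2:**
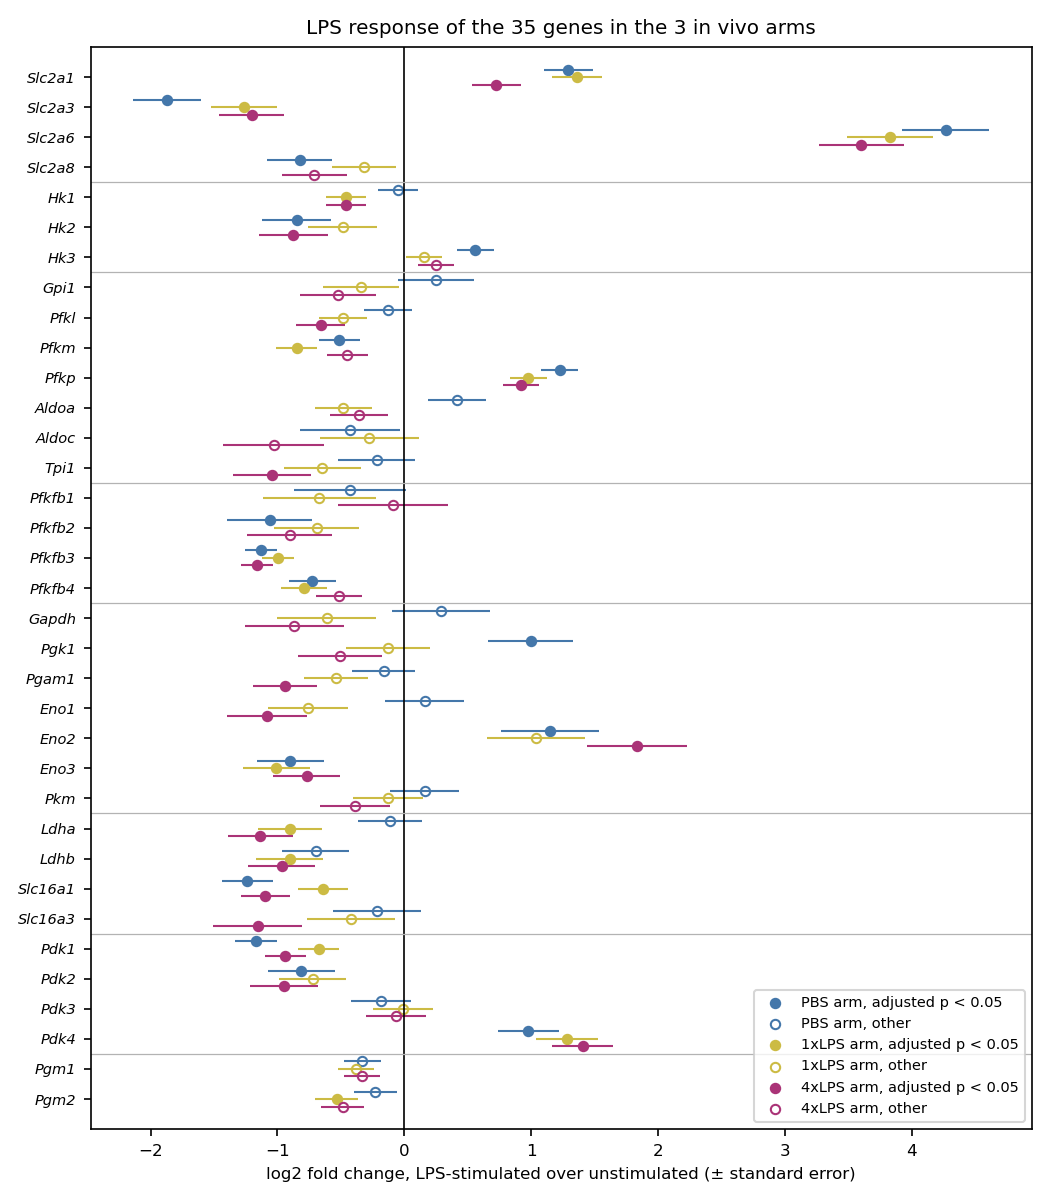
Log2 fold change of LPS-stimulated over unstimulated libraries with its standard error (x axis) for the 35 genes (y axis, in pathway order) in the 3 in vivo arms, with filled points for adjusted p under 0.05 and open points for the rest. Slc2a6 lies farthest to the right at 3.60 to 4.27 in the 3 arms, and most other points lie between -1.5 and 1.5.

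Among the transporters, Slc2a6 and Slc2a1 rose while Slc2a3 fell in every arm. Slc2a6 encodes GLUT6, a transporter held largely on intracellular membranes. Its level was 23.9, 22.1 and 22.1 CPM in the 3 unstimulated PBS libraries and 563, 524 and 227 CPM after LPS. The lowest stimulated library, number 3, still stood far above every unstimulated one, and no groups overlapped in any arm. In the 1xLPS arm the values were 37.1, 17.7 and 29.8 CPM without and 355, 538 and 307 CPM with LPS, and in the 4xLPS arm 28.0, 17.4 and 19.2 CPM without and 256, 259 and 269 CPM with LPS. The 4xLPS libraries lay close together after LPS, whereas those of the PBS arm were widely spread. The log2 fold changes were 4.27 ± 0.34 (standard error, SE) in the PBS arm (19.3-fold, adjusted p = 3.12e-08), 3.83 ± 0.34 in the 1xLPS arm (14.2-fold, adjusted p = 1.45e-07) and 3.60 ± 0.34 in the 4xLPS arm (12.2-fold, adjusted p = 3.1e-07). Of the 35 genes this was the largest change in each arm.

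Slc2a1 encodes GLUT1, the widely expressed high-affinity glucose carrier of the plasma membrane. It was measured at 99.7, 98.5 and 99.7 CPM in unstimulated PBS libraries and at 288, 262 and 181 CPM after LPS. In the 1xLPS arm it was at 112, 71.1 and 83.4 CPM and then 236, 275 and 175 CPM, and in the 4xLPS arm at 108, 122 and 127 CPM and then 203, 184 and 205 CPM. Stimulated and unstimulated libraries were separate in every arm. The rises were 1.29 ± 0.20 on the log2 scale (adjusted p = 6.41e-05), 1.37 ± 0.20 (adjusted p = 4.78e-05) and 0.73 ± 0.19 (adjusted p = 0.0124) in the PBS, 1xLPS and 4xLPS arms. The call in the 4xLPS arm was lost without any one of unstimulated libraries 1 and 2 or stimulated libraries 1 and 3 (adjusted p 0.061 to 0.0749).

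Slc2a3 encodes GLUT3, a high-affinity glucose transporter best known from neurons and also present in leukocytes. Its level was low throughout, at 10.3, 7.65 and 6.57 CPM in unstimulated PBS libraries and 2.15, 2.96 and 1.67 CPM after LPS. The 1xLPS libraries gave 6.36, 6.76 and 9.17 CPM without LPS and 3.57, 3.04 and 2.56 CPM with it, and the 4xLPS libraries 6.67, 7.70 and 7.89 CPM and then 3.88, 2.85 and 2.95 CPM. No stimulated library reached an unstimulated one of its arm. The falls were -1.87 ± 0.27 (adjusted p = 3.36e-05), -1.27 ± 0.26 (adjusted p = 0.00157) and -1.20 ± 0.26 (adjusted p = 0.00248) on the log2 scale. Slc2a8, which encodes the intracellular transporter GLUT8, fell in the PBS arm (-0.82 ± 0.26, adjusted p = 0.0246) but not past the threshold in the 1xLPS arm (-0.32 ± 0.25, adjusted p = 0.395) or the 4xLPS arm (-0.71 ± 0.26, adjusted p = 0.0619). Its call in the PBS arm was lost when unstimulated library 1 or 2 or stimulated library 1, 2 or 3 was left out (adjusted p 0.0559 to 0.0776).

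**Figure D3:**
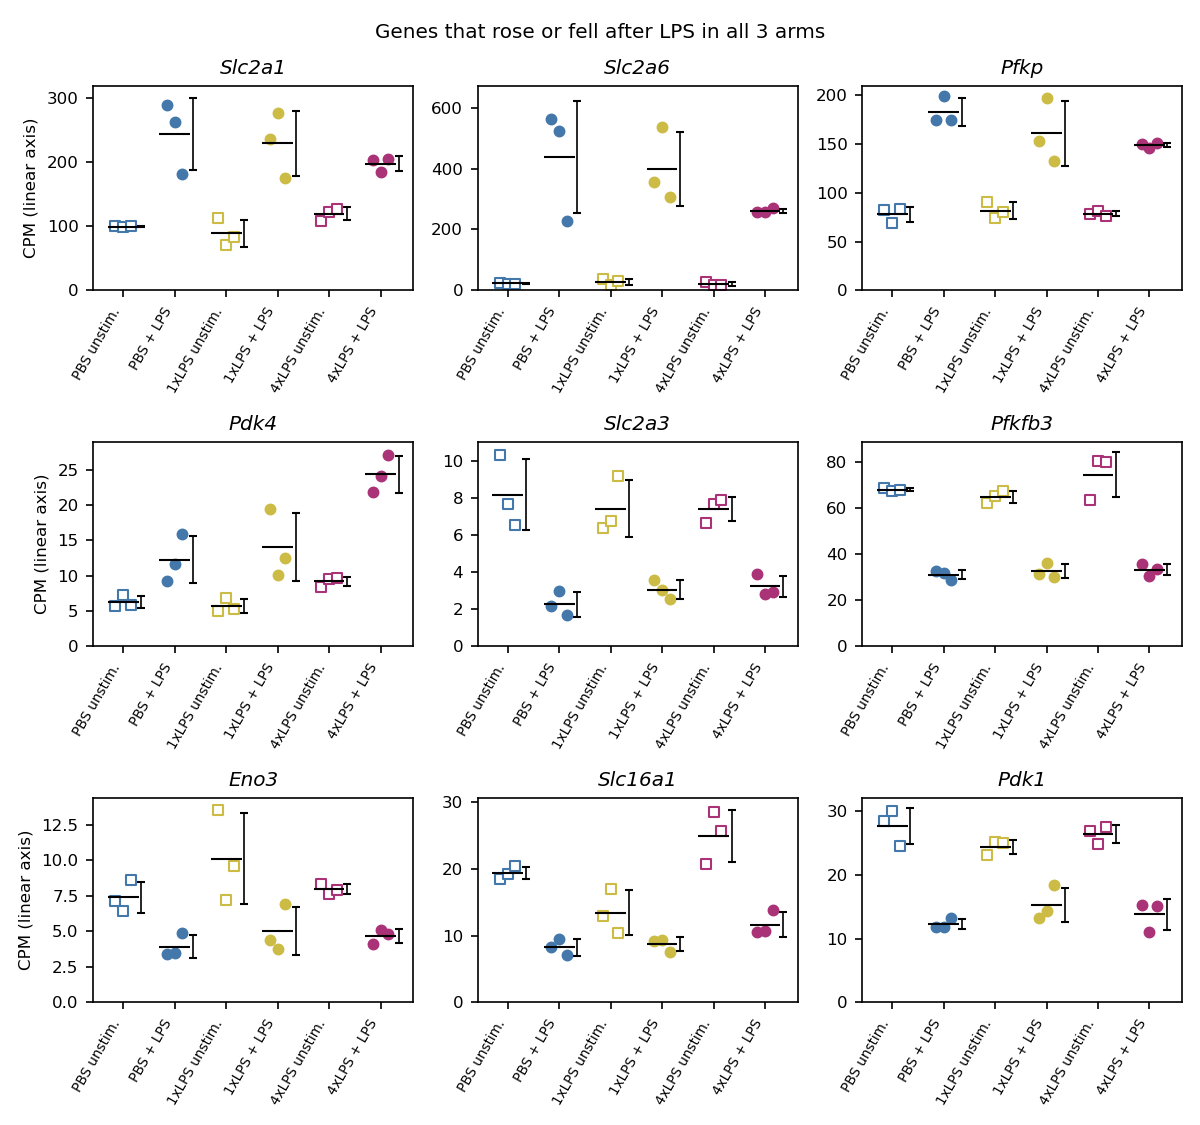
Levels (CPM, linear axes from 0) of the 9 genes called in the same direction in all 3 arms, with 1 point per library, a line at the mean of 3 libraries and a bar of 1 SD beside it (open squares unstimulated, filled circles LPS-stimulated). In each arm the stimulated and unstimulated points of all 9 genes are separate, and Pdk4 after LPS reached 21.9 to 27.1 CPM in the 4xLPS arm against 9.27 to 15.9 CPM in the PBS arm.

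The makeup of the transporter set was described by shares. Per kilobase of exon, Slc2a1 held 60.6% ± 2.5 (SD, n = 3) and Slc2a6 15.1% ± 0.49 of the summed level of the 4 transporters in unstimulated PBS libraries. After LPS Slc2a1 held 34.0% ± 5.5 and Slc2a6 62.8% ± 6.6. In the 1xLPS arm the share of Slc2a6 went from 19.0% ± 2.4 to 62.2% ± 3.6, and in the 4xLPS arm from 13.0% ± 3.2 to 56.6% ± 1.5. The library ranges of stimulated and unstimulated groups did not overlap in any arm. These shares are descriptions of RNA, with no test of their own, and depend on the annotated exon lengths.

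The hexokinases trap glucose in the cell, and the 3 isozymes did not move alike. Hk2, the inducible isozyme that binds mitochondria, stood at 93.0, 87.9 and 92.3 CPM in unstimulated PBS libraries and at 53.6, 58.1 and 40.1 CPM after LPS. In the 4xLPS arm it went from 80.9, 103 and 99.3 CPM to 55.2, 50.7 and 48.7 CPM. The groups of these 2 arms were separate. The falls were -0.85 ± 0.27 (adjusted p = 0.0287) and -0.87 ± 0.27 (adjusted p = 0.0305) on the log2 scale. In the 1xLPS arm, 49.1, 81.2 and 74.1 CPM without LPS overlapped 46.8, 74.2 and 24.9 CPM with it (-0.48 ± 0.27, adjusted p = 0.214). Both calls depended on single libraries: in the PBS arm the call was lost without unstimulated library 1, 2 or 3 or stimulated library 1 or 3 (adjusted p 0.0541 to 0.107), and in the 4xLPS arm without unstimulated library 2 or 3 or stimulated library 2 or 3 (adjusted p 0.0643 to 0.0856) or with library totals alone (adjusted p = 0.0585).

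Hk1, the constitutive isozyme, fell in the 1xLPS arm (-0.46 ± 0.16, adjusted p = 0.0436) and the 4xLPS arm (-0.46 ± 0.16, adjusted p = 0.0495), and its change in the PBS arm was -0.05 ± 0.16 (adjusted p = 0.847). It was at 209.8, 142 and 181 CPM without and 114, 123 and 150.4 CPM with LPS in the 1xLPS arm, and at 168, 136 and 144 CPM without and 113, 101 and 112 CPM with LPS in the 4xLPS arm. The 1xLPS groups overlapped and the 4xLPS groups did not. Of the 18 removals of 1 library, 7 ended the 1xLPS call (unstimulated PBS 1, 1xLPS 1 and 3 and 4xLPS 3, stimulated PBS 2 and 1xLPS 1 and 2, adjusted p 0.0503 to 0.154). Another 10 ended the 4xLPS call (unstimulated PBS 1, 1xLPS 3 and 4xLPS 1 and 3, stimulated PBS 1 and 2, 1xLPS 2 and 4xLPS 1, 2 and 3, adjusted p 0.054 to 0.201). Both were also lost with no filter on low counts (adjusted p 0.306 and 0.201), and the 1xLPS call with only the groups compared (adjusted p = 0.283). Hk3, the isozyme of myeloid cells and the one with the highest level, rose in the PBS arm from 335, 316 and 319 CPM to 416, 533 and 483 CPM (0.56 ± 0.14, adjusted p = 0.00681). That call was lost with no filter on low counts (adjusted p = 0.0569). In the 1xLPS arm its difference was 0.15 ± 0.14 (adjusted p = 0.467) and in the 4xLPS arm 0.25 ± 0.14 (adjusted p = 0.248). Its share of hexokinase level per kilobase was 74.4% ± 1.1 without and 84.9% ± 1.2 with LPS in the PBS arm, 75.7% ± 1.7 and 82.8% ± 2.6 in the 1xLPS arm, and 69.3% ± 1.7 and 80.8% ± 0.74 in the 4xLPS arm, with no overlap between library ranges. Hk3 was outside the rule for full values and was described after its values were seen.

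Phosphofructokinase, the committed step, showed opposite changes of its isozymes. Pfkp, the platelet isozyme, was at 81.8, 69.3 and 82.9 CPM in unstimulated PBS libraries and 174, 199 and 174 CPM after LPS. The 1xLPS values were 90.7, 74.1 and 79.9 CPM and then 153, 197 and 132 CPM, and the 4xLPS values 78.0, 81.0 and 76.6 CPM and then 149, 146 and 150.5 CPM. Every stimulated library lay above every unstimulated library of the 3 arms. The log2 fold changes were 1.23 ± 0.15 (2.34-fold, adjusted p = 3.94e-06), 0.98 ± 0.15 (1.97-fold, adjusted p = 6.79e-05) and 0.92 ± 0.15 (1.89-fold, adjusted p = 0.000141). Pfkm, the muscle isozyme, fell from 15.5, 13.3 and 13.4 CPM to 9.94, 9.03 and 10.6 CPM in the PBS arm (-0.51 ± 0.16, adjusted p = 0.0273) and from 19.3, 14.7 and 20.3 CPM to 10.2, 9.72 and 10.1 CPM in the 1xLPS arm (-0.85 ± 0.16, adjusted p = 0.000895). Its difference in the 4xLPS arm was -0.45 ± 0.16 (adjusted p = 0.0629). Pfkl, the liver isozyme, fell in the 4xLPS arm (-0.66 ± 0.19, adjusted p = 0.0204). Its differences were -0.13 ± 0.19 (adjusted p = 0.669) in the PBS arm and -0.48 ± 0.19 (adjusted p = 0.0784) in the 1xLPS arm. The share of Pfkp in the family, per kilobase, was 21.3% ± 1.1 without and 42.1% ± 1.9 with LPS in the PBS arm, 17.8% ± 3.1 and 37.3% ± 5.7 in the 1xLPS arm and 18.5% ± 1.8 and 39.8% ± 1.2 in the 4xLPS arm. Pfkl held the largest share per kilobase in all 6 groups, at 48.7% ± 2.6 in the PBS, 53.3% ± 5.4 in the 1xLPS and 49.5% ± 0.25 in the 4xLPS arm after LPS. That order depends on exon length: without division by length Pfkp held 61.3%, 56.1% and 59.3% after LPS and Pfkl 35.4%, 40.3% and 36.7%. The call of Pfkm in the PBS arm was lost without unstimulated library 1 or stimulated library 1 or 2 (adjusted p 0.0578 to 0.114) or with no filter on low counts (adjusted p = 0.299), its call in the 1xLPS arm with only the groups compared (adjusted p = 0.0612), and that of Pfkl in the 4xLPS arm without unstimulated library 1 or 3 or stimulated library 2 (adjusted p 0.0517 to 0.0813).

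The bifunctional PFK2 enzymes make and break fructose-2,6-bisphosphate, the activator of phosphofructokinase, and in this family no gene rose in any arm while Pfkfb3 fell in all 3, Pfkfb4 in 2 and Pfkfb2 in 1. Pfkfb3, the isozyme with the highest kinase activity, was at 68.5, 67.5 and 67.7 CPM in unstimulated PBS libraries and 32.5, 31.8 and 28.8 CPM after LPS. It went from 62.1, 65.1 and 67.1 CPM to 31.4, 35.9 and 30.1 CPM in the 1xLPS arm and from 63.1, 80.0 and 79.8 CPM to 35.5, 30.5 and 33.7 CPM in the 4xLPS arm. Replicates were tight and no groups overlapped. The falls were -1.13 ± 0.13 (adjusted p = 2.18e-06), -1.0 ± 0.13 (adjusted p = 1.27e-05) and -1.16 ± 0.13 (adjusted p = 2.38e-06) on the log2 scale. Pfkfb4 fell from 53.5, 39.3 and 49.3 CPM to 25.4, 26.8 and 33.6 CPM in the PBS arm (-0.72 ± 0.18, adjusted p = 0.00616) and from 56.9, 46.6 and 69.2 CPM to 27.1, 31.5 and 41.2 CPM in the 1xLPS arm (-0.79 ± 0.18, adjusted p = 0.00398), where the call was lost with only the groups compared (adjusted p = 0.0785). In the 4xLPS arm 47.0, 40.1 and 41.6 CPM were followed by 32.4, 29.6 and 28.0 CPM, which did not overlap, at an adjusted p of 0.055 (-0.52 ± 0.18). Pfkfb2 fell in the PBS arm (-1.06 ± 0.34, adjusted p = 0.0269), a call lost without unstimulated library 1 or 3 or stimulated library 1 or 2 (adjusted p 0.0565 to 0.0913), and Pfkfb1, between 0.458 and 1.69 CPM, was not called in any arm.

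The remaining upper enzymes were abundant and showed fewer calls. Gpi1, which converts glucose-6-phosphate to fructose-6-phosphate, was not called in any arm (0.25 ± 0.30, -0.34 ± 0.30 and -0.53 ± 0.30 on the log2 scale in the PBS, 1xLPS and 4xLPS arms, lowest adjusted p 0.249). Aldoa was at 1407, 1126 and 1278 CPM without and 1509, 1631 and 1936 CPM with LPS in the PBS arm, and at 1641, 1200 and 1395 CPM without and 1093, 1133 and 1086 CPM with LPS in the 4xLPS arm. Its groups were thus separate in both arms, higher after LPS in the first and lower in the second. Neither passed the test (0.41 ± 0.23, adjusted p = 0.197, and -0.36 ± 0.23, adjusted p = 0.307). Tpi1, which interconverts the triose phosphates, fell in the 4xLPS arm (-1.04 ± 0.31, adjusted p = 0.0216), a call lost without unstimulated library 1 or stimulated library 1 or 2 (adjusted p 0.0518 to 0.0853). Aldoc, a minor aldolase at 4.03 to 17.4 CPM, was not called.

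In lower glycolysis the enolases stood out. Eno2, the enolase best known from neurons, rose from 17.7, 19.8 and 25.2 CPM to 50.3, 49.3 and 39.6 CPM in the PBS arm and from 7.52, 23.3 and 13.1 CPM to 52.4, 54.5 and 51.1 CPM in the 4xLPS arm. The log2 fold changes were 1.15 ± 0.38 (adjusted p = 0.0349) and 1.84 ± 0.39 (adjusted p = 0.0024). The 1xLPS arm gave 11.6, 21.6 and 23.6 CPM and then 51.6, 48.4 and 15.7 CPM, where stimulated library 3 fell among the unstimulated ones (1.04 ± 0.39, adjusted p = 0.0613). The call in the PBS arm was lost when any one of its 6 libraries was left out (adjusted p 0.0502 to 0.119) or with library totals alone (adjusted p = 0.117). Per kilobase, the share of Eno2 in enolase was 3.01% ± 0.091 without and 6.24% ± 2.2 with LPS in the PBS arm, 2.37% ± 1.5 and 7.28% ± 4.9 in the 1xLPS arm, where the library ranges overlapped (0.702% to 3.59% and 1.77% to 11.0%), and 1.68% ± 1.0 and 11.3% ± 1.3 in the 4xLPS arm.

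Eno3, the muscle enolase, fell in all 3 arms from a low level. It went from 7.13, 6.47 and 8.61 CPM to 3.41, 3.48 and 4.89 CPM in the PBS arm, from 13.6, 7.23 and 9.59 CPM to 4.39, 3.77 and 6.96 CPM in the 1xLPS arm, and from 8.32, 7.61 and 7.94 CPM to 4.14, 5.07 and 4.78 CPM in the 4xLPS arm. Stimulated and unstimulated libraries did not overlap in any arm. The changes were -0.90 ± 0.27 (adjusted p = 0.0179), -1.01 ± 0.26 (adjusted p = 0.00968) and -0.77 ± 0.26 (adjusted p = 0.0493) on the log2 scale. These calls were lost in the PBS arm without unstimulated library 3 or stimulated library 1 or 2 (adjusted p 0.0645 to 0.0727), in the 1xLPS arm without unstimulated library 1 or stimulated library 2 (adjusted p 0.0539 to 0.0597), and in the 4xLPS arm in 11 of 18 removals (unstimulated PBS 1, 1xLPS 3 and 4xLPS 1, 2 and 3, stimulated PBS 1 and 2, 1xLPS 1 and 4xLPS 1, 2 and 3, adjusted p 0.0523 to 0.126). They were also lost with no filter in the PBS and 4xLPS arms (adjusted p 0.0503 and 0.126), with only the groups compared in the 1xLPS arm (adjusted p = 0.127) and by limma-voom in the 4xLPS arm (adjusted p = 0.0656).

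The abundant payoff enzymes did not rise together. Pgk1, which makes the first ATP of the pathway, rose in the PBS arm (1.00 ± 0.34, adjusted p = 0.0355) and was at -0.13 ± 0.33 (adjusted p = 0.818) in the 1xLPS arm and -0.51 ± 0.33 (adjusted p = 0.32) in the 4xLPS arm. The call in the PBS arm was lost in 7 of 18 removals of 1 library, namely unstimulated PBS 1 and 2 and 4xLPS 2 and stimulated PBS 2 and 3 and 4xLPS 1 and 3 (adjusted p 0.0554 to 0.173), and with library totals alone (adjusted p = 0.0724). Pgam1 (-0.94 ± 0.25, adjusted p = 0.0124) and Eno1 (-1.08 ± 0.32, adjusted p = 0.0214), the next enzymes in order, fell in the 4xLPS arm, and both calls were lost without unstimulated library 3 or stimulated library 1 or 2 (Eno1 also without unstimulated library 1), at adjusted p from 0.050 to 0.0561 for Pgam1 and 0.055 to 0.0746 for Eno1. Gapdh, often used as a reference gene, was not called in any arm, with differences of 0.29 ± 0.39, -0.61 ± 0.39 and -0.87 ± 0.39 on the log2 scale (adjusted p 0.628, 0.278 and 0.14). Its level ran from 664 CPM in a stimulated 4xLPS library to 3412 CPM in unstimulated 1xLPS library 1. Pkm was not called either (0.16 ± 0.27, -0.13 ± 0.27 and -0.39 ± 0.27, adjusted p 0.71, 0.775 and 0.359). Pgk1, Pgam1 and Eno1 were outside the rule for full values and were described after their values were seen.

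**Figure D4:**
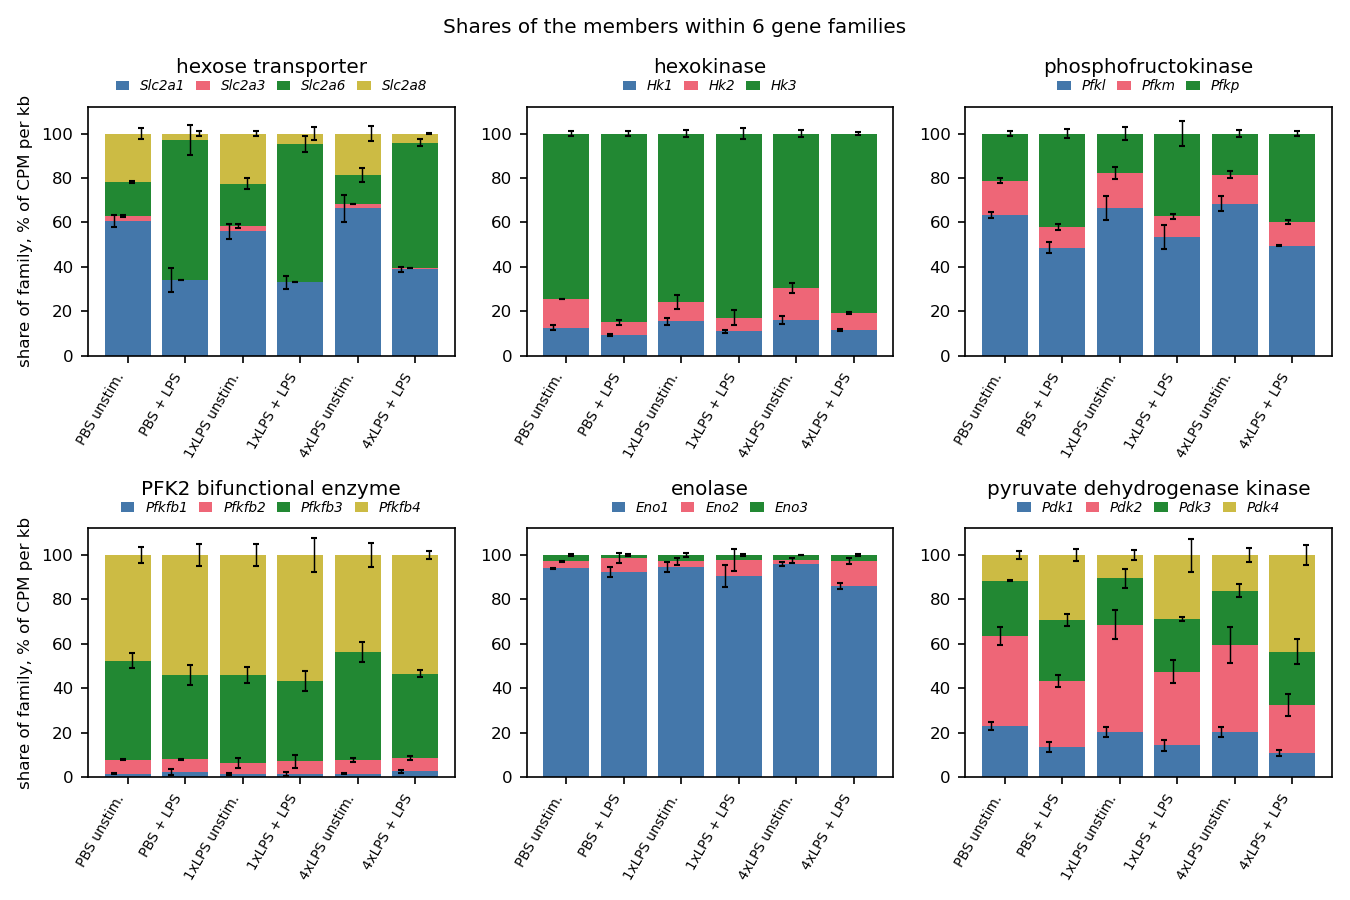
Shares of the members of 6 gene families in each group (stacked bars, percent of the family's summed CPM per kilobase of exon, means of 3 libraries, with 1 SD drawn at the top of each segment). Slc2a6, Hk3, Pfkp, Eno2 and Pdk4 hold larger shares after LPS in each arm, for example 21.3% and 42.1% for Pfkp in the PBS arm.

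At the lactate end no gene rose in any arm. Ldha encodes the lactate dehydrogenase subunit that favours lactate production. Its level was 692, 523 and 658 CPM without and 490.3, 509 and 734 CPM with LPS in the PBS arm, 1316, 839.7 and 835 CPM without and 389, 413 and 801 CPM with LPS in the 1xLPS arm, and 862, 711 and 832 CPM without and 364, 362 and 369.8 CPM with LPS in the 4xLPS arm. The PBS groups overlapped and the other 2 pairs of groups did not. Ldha fell in the 1xLPS arm (-0.90 ± 0.25, adjusted p = 0.015) and the 4xLPS arm (-1.13 ± 0.25, adjusted p = 0.00339), and its difference in the PBS arm was -0.11 ± 0.25 (adjusted p = 0.781). The call in the 1xLPS arm was lost without unstimulated library 1 or stimulated library 1 or 2 (adjusted p 0.0695 to 0.0823) or with only the groups compared (adjusted p = 0.153). Ldhb, the subunit that favours the reverse reaction, fell in the 1xLPS arm from 11.2, 10.5 and 9.59 CPM to 5.80, 4.34 and 6.70 CPM (-0.90 ± 0.26, adjusted p = 0.0195) and in the 4xLPS arm from 11.1, 11.0 and 8.75 CPM to 4.78, 6.88 and 4.18 CPM (-0.97 ± 0.27, adjusted p = 0.0145), and was at an adjusted p of 0.0593 in the PBS arm (-0.70 ± 0.26). These calls were lost without stimulated library 2 or with only the groups compared in the 1xLPS arm (adjusted p 0.098 and 0.0949) and without unstimulated library 1 or stimulated library 3 in the 4xLPS arm (adjusted p 0.0515 and 0.0572). Ldha made up 96.6% to 97.8% of lactate dehydrogenase level per kilobase in the 6 groups.

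Of the lactate carriers, Slc16a1 (MCT1, which carries lactate and pyruvate both ways) fell in all 3 arms. It was at 18.5, 19.3 and 20.4 CPM and then 8.23, 9.5 and 7.02 CPM in the PBS arm, at 13.0, 17.0 and 10.3 CPM and then 9.23, 9.35 and 7.54 CPM in the 1xLPS arm, and at 20.7, 28.5 and 25.6 CPM and then 10.5, 10.6 and 13.8 CPM in the 4xLPS arm. Groups of each arm were separate. The falls were -1.24 ± 0.20 (adjusted p = 0.000118), -0.64 ± 0.20 (adjusted p = 0.0257) and -1.10 ± 0.20 (adjusted p = 0.000489), and that of the 1xLPS arm was lost without unstimulated library 2 or stimulated library 3 (adjusted p 0.111 and 0.0593). It was also lost with no filter (adjusted p = 0.142), with only the groups compared (adjusted p = 0.216), and without the 2 or 3 libraries lowest on the second principal component (adjusted p 0.0654 and 0.0622). Slc16a3 (MCT4, the lactate exporter of glycolytic cells) fell in the 4xLPS arm (-1.16 ± 0.35, adjusted p = 0.0251) and not past the threshold in the PBS arm (-0.22 ± 0.34, adjusted p = 0.688) or the 1xLPS arm (-0.42 ± 0.34, adjusted p = 0.405). Its 4xLPS call was lost without unstimulated library 1 or 3 or any of the 3 stimulated libraries (adjusted p 0.0526 to 0.0866).

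The pyruvate dehydrogenase kinases, which switch off entry of pyruvate into the tricarboxylic acid cycle, moved in opposite directions. Pdk4 rose from 5.73, 7.30 and 5.81 CPM to 9.27, 11.7 and 15.9 CPM in the PBS arm, from 5.06, 6.78 and 5.27 CPM to 19.4, 10.2 and 12.5 CPM in the 1xLPS arm, and from 8.43, 9.52 and 9.67 CPM to 21.9, 24.1 and 27.1 CPM in the 4xLPS arm. All stimulated libraries lay above the unstimulated ones of their arm. The rises were 0.98 ± 0.24 (adjusted p = 0.00494), 1.28 ± 0.24 (adjusted p = 0.000727) and 1.41 ± 0.24 (adjusted p = 0.00029). Pdk1, a known HIF-1 target, fell from 28.4, 30.1 and 24.5 CPM to 11.9, 11.8 and 13.2 CPM in the PBS arm, from 23.2, 25.1 and 25 CPM to 13.3, 14.3 and 18.4 CPM in the 1xLPS arm and from 26.9, 24.9 and 27.6 CPM to 15.2, 11.0 and 15.2 CPM in the 4xLPS arm. Here too the groups were separate, with changes of -1.17 ± 0.16 (adjusted p = 2.44e-05), -0.67 ± 0.16 (adjusted p = 0.00515) and -0.94 ± 0.16 (adjusted p = 0.000333). The call of Pdk1 in the 1xLPS arm was lost with no filter on low counts (adjusted p = 0.0841) and with only the groups compared (adjusted p = 0.11).

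Pdk2 fell from 23.5, 17.5 and 18.3 CPM to 10.4, 8.89 and 14.3 CPM in the PBS arm (-0.81 ± 0.27, adjusted p = 0.0312) and from 29.5, 16.6 and 17.0 CPM to 13.1, 7.55 and 12.0 CPM in the 4xLPS arm (-0.95 ± 0.27, adjusted p = 0.0166). The difference in the 1xLPS arm had an adjusted p of 0.0574 (-0.72 ± 0.26). Single removals ended the PBS call (unstimulated library 1 or stimulated library 1 or 2, adjusted p 0.0875 to 0.13) and the 4xLPS call (unstimulated library 1 or stimulated library 2, adjusted p 0.137 and 0.0847). Pdk3 was not called in any arm. Per kilobase, Pdk4 held 11.7% ± 2.0 of kinase level without and 29.3% ± 2.9 with LPS in the PBS arm, 10.5% ± 2.2 and 28.7% ± 7.4 in the 1xLPS arm, and 16.0% ± 3.0 and 43.4% ± 4.7 in the 4xLPS arm.

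The phosphoglucomutases, which link glucose-6-phosphate to glycogen, changed little. Pgm2 fell in the 1xLPS arm (-0.53 ± 0.17, adjusted p = 0.0295), a call lost without unstimulated library 1 or stimulated library 1 or 2 (adjusted p 0.107 to 0.128), with no filter (adjusted p = 0.197) or with only the groups compared (adjusted p = 0.212), and Pgm1 was not called in any arm (lowest adjusted p 0.0652). The symbols Pgm1 and Pgm2 were exchanged between mouse annotations, and which one the table uses is not stated.

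Neighbouring pathways were read from gene lists. Of all tested genes, 14.0%, 12.0% and 10.6% were called higher in the PBS, 1xLPS and 4xLPS arms, and 11.3%, 10.8% and 8.29% lower. In all 3 arms 7.40% rose and 5.67% fell. With so few genes in a list, the counts that follow are not read as a response of a list. Of the 8 pentose phosphate genes, Pgd, the NADPH-producing phosphogluconate dehydrogenase, rose in all 3 arms (0.91 ± 0.18, 0.70 ± 0.17 and 0.57 ± 0.17 on the log2 scale, adjusted p 0.000733, 0.00679 and 0.0261), and H6pd, the glucose-6-phosphate dehydrogenase of the endoplasmic reticulum, fell (-0.79 ± 0.21, -0.87 ± 0.21 and -0.95 ± 0.21, adjusted p 0.009, 0.00531 and 0.00293). In the PBS arm 2 of the 8 rose (Pgd and G6pdx) and 1 fell, with 1 and 1 in each of the other arms. Of the 14 glycogen genes 1 rose in each arm, the branching enzyme Gbe1 (1.29 ± 0.18, 0.79 ± 0.18 and 1.19 ± 0.18), and 5, 4 and 4 fell in the PBS, 1xLPS and 4xLPS arms. The liver-type glycogen phosphorylase Pygl was among those that fell (-1.10 ± 0.23, -1.06 ± 0.23 and -1.40 ± 0.23), as were Gyg, the glycogenin that primes glycogen (-1.01 ± 0.17, -0.57 ± 0.17 and -0.56 ± 0.17), and Epm2a, the glycogen phosphatase laforin (-2.13 ± 0.37, -1.59 ± 0.37 and -1.85 ± 0.37). The list median was -0.26, -0.49 and -0.20.

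Pck2, the mitochondrial phosphoenolpyruvate carboxykinase, was the only 1 of 4 tested gluconeogenesis genes to rise in all 3 arms (0.98 ± 0.25, 1.11 ± 0.25 and 0.89 ± 0.25). Among 10 genes of pyruvate entry, Pdp1, the phosphatase that reactivates pyruvate dehydrogenase, fell in all 3 (-1.44 ± 0.24, -0.84 ± 0.24 and -0.93 ± 0.24). Of 16 tested genes of other hexose handling, Bpgm, which makes 2,3-bisphosphoglycerate (-1.15 ± 0.22, -0.96 ± 0.22 and -0.93 ± 0.22), and Slc37a4, the glucose-6-phosphate carrier (-1.15 ± 0.17, -0.64 ± 0.16 and -0.72 ± 0.16), fell in all 3 arms. Of 16 tested regulators, Slc7a5, an amino acid carrier that feeds mTOR signalling, rose (1.88 ± 0.25, 2.12 ± 0.25 and 1.34 ± 0.24), while Txnip, which restrains glucose uptake, fell (-1.08 ± 0.16, -0.97 ± 0.16 and -0.91 ± 0.16), as did the HIF prolyl hydroxylases Egln3 (-1.17 ± 0.24, -1.20 ± 0.25 and -1.88 ± 0.25) and Egln1 (-0.71 ± 0.20, -0.89 ± 0.20 and -0.85 ± 0.20). The regulators gave 2 rises and 4 falls in the PBS arm, 2 and 3 in the 1xLPS arm and 1 and 3 in the 4xLPS arm. These counts too stand beside the shares of all tested genes given above and are not read as a response of the list.

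Between arms no member was called, in any of the 6 comparisons of arms or the 3 differences of response. In the comparison of 4xLPS with PBS after LPS, 0.0777% of all tested genes were called (0.0636% higher and 0.0141% lower), and in the other 8 comparisons 0 of 14158 tested genes. Among unstimulated cells, 7 of 35 members had an unadjusted p under 0.05 for 1xLPS over PBS, 1 for 4xLPS over PBS and 7 for 4xLPS over 1xLPS. Of all 14158 tested genes, 1669, 849 and 1352 had such a p in these 3 comparisons. Among LPS-stimulated cells the counts were 0, 10 and 7 in the same order, beside 1085, 1963 and 848 of all tested genes. For the differences of response, the member counts were 5 for 1xLPS minus PBS, 5 for 4xLPS minus PBS and 1 for 4xLPS minus 1xLPS. Those of all tested genes were 1154, 803 and 300. DESeq2 called 3 members in 4xLPS over PBS after LPS, 1 in 4xLPS over 1xLPS without LPS and 0 in the others. How many of all tested genes DESeq2 called is not given here, so its counts are not read as particular to the members. With 3 libraries a group, a missed threshold does not show that levels were alike.

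After LPS, 11 of the 35 members were lower in every 4xLPS library than in every PBS library, and 3 were higher (31.4% and 8.57%, beside 14.0% and 14.8% of tested genes). The lower ones were Hk3, Gpi1, Pfkp, Aldoa, Tpi1, Gapdh, Pgk1, Pgam1, Eno1, Pkm and Ldha, which include an enzyme for every step from glucose to pyruvate and for the step to lactate, and the higher ones were Eno2, Slc16a1 and Pdk4. This was not particular to the members: of 8 pentose phosphate genes, 4 were lower without overlap and 0 higher. Of 14 glycogen genes, 0 were lower and 1 was higher. Pgk1 was at 179, 231 and 304 CPM in the PBS libraries and 102, 106 and 124 CPM in the 4xLPS libraries (-1.11 ± 0.34 on the log2 scale, unadjusted 95% interval -1.77 to -0.45, adjusted p = 0.17). Hk3 was at 416, 533 and 483 CPM and 329.8, 323 and 339 CPM (-0.53 ± 0.14, interval -0.81 to -0.25, adjusted p = 0.152). For Pdk4, 9.27, 11.7 and 15.9 CPM stood against 21.9, 24.1 and 27.1 CPM (0.98 ± 0.23, interval 0.52 to 1.44, adjusted p = 0.136). Eno1 differed by -0.84 ± 0.31 (interval -1.46 to -0.23, adjusted p = 0.25) and Gapdh by -0.86 ± 0.39 (interval -1.63 to -0.09, adjusted p = 0.339). Slc2a6 differed by -0.74 ± 0.30 (interval -1.34 to -0.15, adjusted p = 0.284) with overlapping groups. The summed level of the 35 members was 9751, 10383 and 11438 CPM in the stimulated PBS libraries and 7487, 7013 and 7872 CPM in the stimulated 4xLPS libraries.

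The calls between arms changed when a pair of libraries was left out. Unstimulated 1xLPS library 1 and stimulated 1xLPS library 3 stood apart on the second principal component (scores -66.6 and -55.8, with the other 16 libraries between -25.4 and 29.5), and had a summed member level of 18977 and 13370 CPM, the highest 2 of the 18. They also had the lowest mean gene length weighted by counts, 3263 and 3186 bp against 3413 to 3621 bp in the other 16 libraries, and the part of this in the member values was not tested. The stimulated PBS and 4xLPS libraries were themselves separate on this component, at 3.38, -4.75 and -25.4 against 13.1, 11.1 and 16.5. The part of this component in the member differences between those 2 groups was not tested. Without both, 7 members were called for 4xLPS over PBS after LPS: Aldoa, Eno1, Gapdh, Hk3, Ldha and Pgk1 lower and Pdk4 higher (adjusted p from 0.0189 to 0.0332). The counts of calls in the LPS response of the 4xLPS arm then went from 15 falls to 26. Neither library is in these 2 comparisons, but the spread of each gene is estimated from all libraries in the fit. The log2 fold changes over PBS went from -1.11 to -1.16 for Pgk1, -0.53 to -0.57 for Hk3 and 0.98 to 0.93 for Pdk4. As neither removed library is in that comparison, this is no test of their stability. Removing stimulated PBS library 3 as well, whose score was -25.4, also left 7, with Slc2a1 and Slc2a6 lower in place of Aldoa and Pgk1. That library is in the comparison. Without it Eno1 went from -0.89 to -0.74, Gapdh from -0.91 to -0.73 and Ldha from -0.71 to -0.50. Hk3 stayed at -0.57 and Pdk4 went from 0.93 to 1.17. How many of all tested genes were called without these libraries is not given here, so these counts are not read as particular to the members. With library totals in place of TMM scaling the median of all tested genes in this comparison moved by 0.22, and the members' median went from -0.18 to 0.04, while its distance from the median of all genes was -0.20 in both cases.

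Summed levels of stromal markers differed between the arms, though no tested marker was called between arms. The summed level of 12 stromal genes such as collagens was 1823 to 2245 CPM in unstimulated PBS libraries, 2729 to 3922 CPM in 1xLPS and 3634 to 3977 CPM in 4xLPS. After LPS it was 2872 to 3457 CPM, 3341 to 6416 CPM and 5084 to 5215 CPM. Of the 11 tested, 10 were higher without overlap in 4xLPS than in PBS before LPS and 10 after it (beside 10.9% and 14.8% of tested genes). The 10 macrophage markers summed to 13745 to 25455 CPM in the 18 libraries, with 18359 to 25455 CPM in stimulated PBS and 17016 to 19391 CPM in stimulated 4xLPS libraries. After LPS, 4 of the 10 (Cd68, Csf1r, Itgam and Spi1) were lower without overlap in 4xLPS than in PBS and 0 were higher (beside 14.0% and 14.8% of tested genes). The list median was -0.36 on the log2 scale, beside -0.18 for the 35 members and 0.02 for all tested genes, and none of the 10 was called. The 11 neutrophil markers summed to 62.7 to 173 CPM, and 9 of them passed the filter. S100a8, S100a9, Ngp, Ltf and Mmp8 reached 1 CPM in all 18 libraries, while Ly6g was at or below 0.0405 CPM. Erythroid markers summed to at most 0.9 CPM. The part of these markers in the member values was not tested, and in such bulk RNA fewer cells of a type and less RNA per cell cannot be told apart. As a check of stimulation, Tnf, Il1b, Nos2, Irg1 and Cxcl10 rose in every arm.

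**Figure D5:**
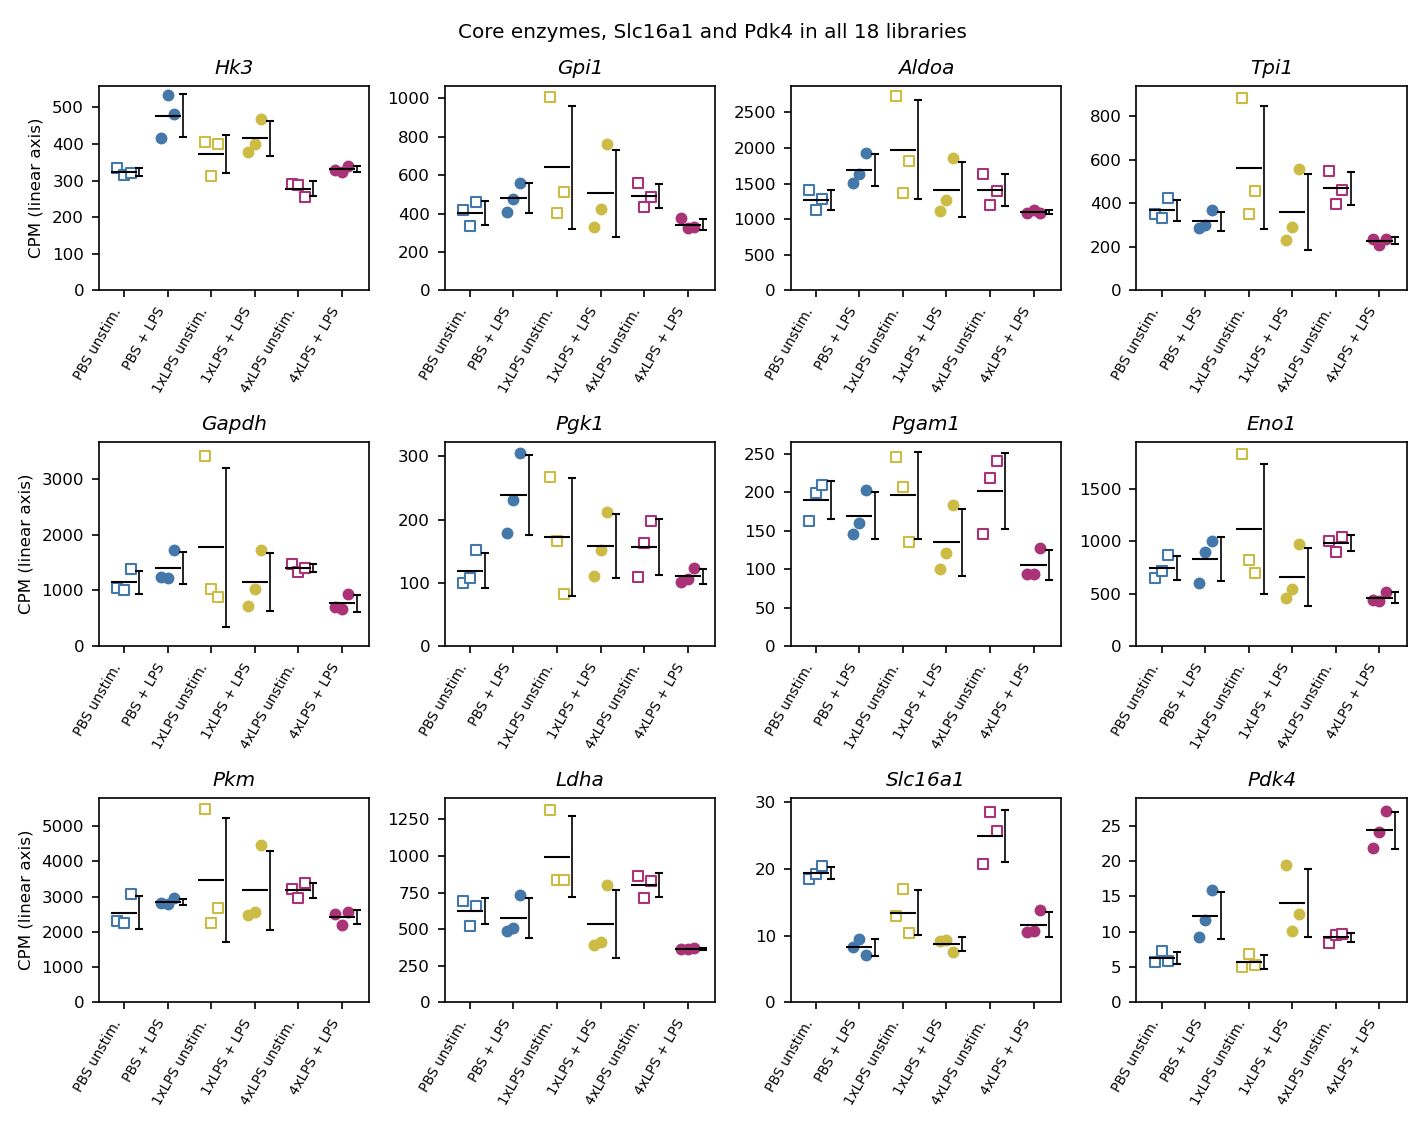
Levels (CPM, linear axes from 0) of 10 core enzymes, Slc16a1 and Pdk4 in the 18 libraries, with 1 point per library, a line at the group mean and a bar of 1 SD beside it (open squares unstimulated, filled circles LPS-stimulated). The 10 enzymes are among the 11 members found lower without overlap in stimulated 4xLPS than in stimulated PBS libraries, so their separation here is not further evidence. Other isozymes, such as Pfkl, overlapped in that comparison and are not drawn. Unstimulated 1xLPS library 1 is the highest point for Gpi1, Aldoa, Tpi1, Gapdh, Pgam1, Eno1, Pkm and Ldha.

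The differences of response were described for the members with the lowest p. The LPS response of Pgk1 was lower in the 4xLPS than in the PBS arm by -1.51 ± 0.47 on the log2 scale, that of Ldha by -1.02 ± 0.35 and that of Eno1 by -1.24 ± 0.44, each at an adjusted p of 0.808. Between the 1xLPS and PBS arms, Aldoa differed by -0.89 ± 0.32 (adjusted p = 0.501) and Pgk1 by -1.13 ± 0.47 (adjusted p = 0.571). Slc2a1 had the lowest p for 4xLPS minus 1xLPS (-0.64 ± 0.27, adjusted p of 1). None of these differences passed the threshold. These 3 sets of differences share libraries with each other and with the comparisons of arms.

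Among unstimulated cells, Slc16a1 was at 18.5, 19.3 and 20.4 CPM in PBS, 13.0, 17.0 and 10.3 CPM in 1xLPS and 20.7, 28.5 and 25.6 CPM in 4xLPS libraries, and every library of a group lay apart from those of the other groups. The difference of 4xLPS over 1xLPS was 0.88 ± 0.20 (interval 0.50 to 1.26), the lowest p of the 35 in any comparison of arms, at an adjusted p of 0.321. DESeq2 called it. Pdk4 was at 5.73, 7.30 and 5.81 CPM in PBS, 5.06, 6.78 and 5.27 CPM in 1xLPS and 8.43, 9.52 and 9.67 CPM in 4xLPS libraries before LPS, where the last group lay above both others (0.55 ± 0.24 over PBS, adjusted p = 0.719). Without LPS, 7 members were higher and 1 lower without overlap in 4xLPS than in PBS (20% and 2.86%, beside 10.9% and 8.00% of tested genes). For 1xLPS over PBS 3 were higher and 3 lower (beside 6.36% and 5.05%), and for 4xLPS over 1xLPS 3 were higher and 2 lower (beside 5.62% and 6.45%). After LPS, 2 were higher and none lower for 1xLPS over PBS (beside 6.25% and 5.77%), and 2 were higher and 6 lower for 4xLPS over 1xLPS (beside 7.89% and 6.51%).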

How the data were processed

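RNA from 18 libraries of bone marrow-derived macrophages was sequenced on an Ion Proton, per the labels' protocols. The deposited values are whole-number read counts per gene symbol, made by the authors before deposit; the sheet's name calls them RPM, but they are whole and sum to different totals per library. Torrent Suite 5.12, TopHat2, Bowtie2, Cufflinks and build mm10 are named in the submitters' processing notes; the counting program, annotation and strand setting are not stated. The authors' own verdicts in words were not used, and 0 sample columns were left out.

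The 14158 of 43280 symbols that reached 1 CPM in 3 or more libraries were tested with edgeR 4.0.16 (quasi-likelihood, TMM scaling) in R 4.3.3, with 1 mean per group over all 18 libraries, 12 contrasts and Benjamini-Hochberg adjustment over all tested genes within each contrast. CPM are TMM-scaled, and standard errors are the log2 fold change over the square root of F. Intervals use the normal distribution rather than that of the test, so they are somewhat too narrow. They are not adjusted for the number of genes, and an interval without 0 is not a call. Totals of 9296453 to 54050622 put a floor of 3 counts at 0.0555 to 0.323 CPM, which covers counting error only. Alternatives were RLE and no scaling, no filter, DESeq2 1.42.0, limma-voom (limma 3.58.1), only the groups compared, a replicate block, and libraries left out. The script was tested on simulated data. Exon lengths are unions of annotated exons, and the promoters are RefSeq's on GRCm38.p6.

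The members and gene lists were chosen with earlier results of these data known. Full values were given for members called in at least 2 responses, with up to 2 uncalled abundant members per role, and for list genes called in all 3 responses (at most 4 per list by the smallest p in the PBS arm).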

Additional observations from a re-analysis of the deposited data

How the results depend on the processing

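Of the alternative values for the single genes followed, none reversed a called direction, 1656 kept their side of the threshold, 129 lost it and 24 gained it. Leaving out 1 library at a time gave 5 to 12 falls among members in the PBS arm, 7 to 17 in the 1xLPS arm and 6 to 22 in the 4xLPS arm, and 0 to 4 calls for 1xLPS over PBS and 0 to 2 for 4xLPS over 1xLPS without LPS. The 1xLPS arm had 18 falls with no scaling and 2 with only the groups compared, fewer than its 4 rises; the 4xLPS arm had 26 with only the groups compared, 26 without both libraries that stand apart and 26 without the 3 lowest on the second component, a removal chosen after seeing the data. For 4xLPS over PBS after LPS, the members called were 5 with no filter, 3 by DESeq2, 5 with only the groups compared, and 7 and 7 without those 2 and 3 libraries. For 4xLPS over 1xLPS without LPS they were 1 by DESeq2 and 3 without the 3 libraries. With no filter 1 member was called in the difference of response of 1xLPS and PBS and 2 in that of 4xLPS and PBS, which had 1 without the 3 libraries. Counts of all tested genes called under these settings are not given here, so the member counts are not read as particular to the members. The cause was not tested. Without division by length, shares before LPS in the PBS arm were 37.6% for Pfkp, 59.7% for Hk3, 13.9% for Slc2a6 and 2.70% for Eno2, and after LPS 61.3% for Pfkp and 73.3% for Hk3. With the replicate number as a block, 7 members rose and 11 fell in the PBS arm, 4 and 12 in the 1xLPS arm and 5 and 16 in the 4xLPS arm, and 0 were called between arms. This block joined libraries of the same number across all 6 groups, so it is no check of pairing within an arm. Stimulated and unstimulated libraries of an arm share numbers in their titles, and whether they share animals is not known here. A block by arm and number was not fitted. Counts of all tested genes with the block are not given either. Deviations of same-numbered libraries correlated for 4xLPS and PBS without LPS (r 0.604, 0.205 and 0.385) and less for 1xLPS and PBS after LPS (r 0.0324, 0.156 and 0.226), and every other comparison had at least 1 pair with a negative r, so the pairing there rests on a number alone.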
